A study of Homo sapiens with 6 samples.

Results

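The genes described here are 35 factors that fold proteins in the endoplasmic reticulum (ER) or remove misfolded ones from it, together with the stress sensors and the transcription factors known to control many of them. They were taken by gene symbol from a list of ER chaperones, ER-associated degradation (ERAD) factors and targets of ATF6 and XBP1. The rule uses no measured value, but the list was drawn up with earlier results of these data known. All 35 were found among the 62710 genes of the deposited count table. Every one of them passed the filter on low counts and was among the 16877 genes tested. Poly(A) RNA was sequenced from MHCC97-H, a wild-type human hepatocellular carcinoma line, in 6 libraries. The untreated group held 2 libraries, labelled as having received no treatment. A second group of 2 libraries received chloroquine at 40 µM, and the remaining 2 libraries received melatonin at 0.2 mM, each for 16 h. The study's description calls chloroquine an autophagy inhibitor and melatonin an ER stress inhibitor, and asks how the balance of ER stress and autophagy acts on transcription. No solvent control is labelled, the cells were not otherwise modified, and both agents were set against the same untreated libraries.

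Unfolded proteins in the ER are sensed by the membrane proteins IRE1 (encoded by ERN1), ATF6 and PERK. ATF6 is cut in the Golgi to free a transcription factor, and IRE1 splices the XBP1 mRNA so that it encodes an active factor. Both factors bind ER stress elements in the promoters of chaperone and ERAD genes, and liver cells, which secrete much protein, depend on this response. Splicing of XBP1 and cleavage of ATF6 cannot be read from gene counts.

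The libraries held between 15993730 and 23311452 counts, so that 3 counts, taken as the floor, stood for 0.123 to 0.184 CPM, the unit of level used here, in which counts are scaled to one library size. Of 12 hepatocyte markers 1 exceeded 1 CPM in any library (HNF4A, up to 2.15 CPM), APOB, TTR and FGB had no count, and ALB had 1 count over all 6 libraries. A list of 7 epithelial genes led by keratins summed to 2929–3041 CPM in untreated, 2291–2338 CPM in chloroquine and 1466–1527 CPM in melatonin libraries. A list of 5 long noncoding RNAs used as a sign of the RNA fraction, in which NEAT1 was highest, summed to 1428–1511, 1873–1978 and 2812–3010 CPM in the same order. That sum mostly follows NEAT1, which ran from 1049 to 2619 CPM over the 6 libraries. MALAT1 ran from 168 to 231 CPM, TUG1 from 196 to 216 and KCNQ1OT1 from 8.03 to 13.1, and MEG3 had no count. Those ranges are not split by group, and whether the RNA fraction differed between groups was not tested. Fold changes of all genes also fell with GC content, with slopes per 10% GC of -0.14 on the log2 scale for chloroquine and -0.22 for melatonin. Between replicates the slope was -0.02 to 0.01. The part of these differences in the results was not tested. Counts of changed genes are given with and without offsets that take out the trend with GC content and transcript length. In RNA from whole cultures, fewer cells of a kind and less RNA per cell cannot be told apart.

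The promoters of the genes on which the results turn are shown first, since the ER stress elements lie there. Of the 35 genes, 31 matched RefSeq's table of promoters (GRCh38.p14), and the 250 bases upstream of RefSeq's start were searched on both strands. The gene positions given further below come from another annotation, GENCODE, whose start can differ. By those positions the windows of HSP90B1, ERN1 and HSPA13 lie within the gene, and those of HERPUD1, XBP1 and SEL1L do in part. The ER stress element (ERSE) was taken as CCAAT, then 9 bases of any kind, then CCACG, and ERSE-II as ATTGG, 1 base of any kind, and CCACG. ERSE stood in 6 of the 31 promoters (19.4%), those of HSPA5, HSP90B1, CALR, CANX, CRELD2 and XBP1. Among all 27305 promoters of the table it stood in 22 (0.0806%). ERSE-II stood in 3 of the 31 (9.68%), those of SDF2L1, HYOU1 and HERPUD1, against 14 of the 27305 (0.0513%). The genes were listed as targets of factors that bind these elements, so the shares describe the list and are not evidence about the treatments. Exact matches are given in capitals below, each sequence read 5′ to 3′ on the strand of its gene. HSPA5 encodes BiP and HSP90B1 encodes GRP94, the main Hsp70 and Hsp90 chaperones of the ER lumen. The HSPA5 promoter (chr9:125241344-125241593, minus strand) held 1 ERSE 66 to 48 bases before the start, and the HSP90B1 promoter (chr12:103930160-103930409, plus strand) held 2, one on each strand.
HSPA5: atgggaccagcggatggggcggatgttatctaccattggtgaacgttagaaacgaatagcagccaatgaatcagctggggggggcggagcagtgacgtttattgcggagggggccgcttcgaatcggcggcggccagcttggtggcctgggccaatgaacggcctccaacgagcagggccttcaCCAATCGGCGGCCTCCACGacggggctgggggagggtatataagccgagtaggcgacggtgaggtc
HSP90B1: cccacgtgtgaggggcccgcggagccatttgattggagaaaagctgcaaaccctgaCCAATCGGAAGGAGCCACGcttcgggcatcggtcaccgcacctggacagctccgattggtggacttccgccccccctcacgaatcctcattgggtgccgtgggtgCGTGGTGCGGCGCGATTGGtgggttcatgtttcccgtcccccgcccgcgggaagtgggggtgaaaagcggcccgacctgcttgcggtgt

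An element also stands before 3 genes whose counts rose with melatonin, namely XBP1 (chr22:28800570-28800819, minus strand), HYOU1 (chr11:119057206-119057455, minus strand) and HERPUD1 (chr16:56931892-56932141, plus strand). The capitals in XBP1 mark an ERSE 52 to 34 bases before the start. HYOU1 carried 2 copies of ERSE-II, and the farther copy overlaps a match to the unfolded protein response element TGACGTGG, which 182 of the 27305 promoters hold (0.667%). In HERPUD1 the capitals mark an ERSE-II and, farther from the start, a match on the minus strand to the C/EBP-ATF composite element TGATGNAA, which 870 promoters hold (3.19%). HSP90B1, HYOU1 and HERPUD1 were added to the sequences shown after their values were seen.
XBP1: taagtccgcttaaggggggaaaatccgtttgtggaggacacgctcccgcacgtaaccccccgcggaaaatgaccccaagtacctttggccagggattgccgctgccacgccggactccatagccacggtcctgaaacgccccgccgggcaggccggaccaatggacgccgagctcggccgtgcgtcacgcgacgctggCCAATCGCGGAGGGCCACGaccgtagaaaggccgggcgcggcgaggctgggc
HYOU1: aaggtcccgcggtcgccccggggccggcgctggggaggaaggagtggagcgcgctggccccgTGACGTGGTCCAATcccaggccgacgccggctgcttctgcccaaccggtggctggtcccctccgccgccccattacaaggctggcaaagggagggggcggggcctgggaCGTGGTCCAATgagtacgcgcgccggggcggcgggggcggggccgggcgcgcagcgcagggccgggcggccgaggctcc
HERPUD1: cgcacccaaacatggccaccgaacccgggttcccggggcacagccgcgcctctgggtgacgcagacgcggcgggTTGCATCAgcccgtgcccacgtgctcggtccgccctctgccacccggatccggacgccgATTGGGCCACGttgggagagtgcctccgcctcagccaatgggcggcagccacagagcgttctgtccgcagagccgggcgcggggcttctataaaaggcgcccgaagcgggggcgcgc

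The other genes with the smallest adjusted p-values for an increase with melatonin were SEL1L (chr14:81533854-81534103, minus strand), ERN1 (chr17:64130145-64130394, minus strand) and HSPA13 (chr21:14383147-14383396, minus strand). None of the 4 elements was matched in these windows, which says only that those exact letters are not there.
SEL1L: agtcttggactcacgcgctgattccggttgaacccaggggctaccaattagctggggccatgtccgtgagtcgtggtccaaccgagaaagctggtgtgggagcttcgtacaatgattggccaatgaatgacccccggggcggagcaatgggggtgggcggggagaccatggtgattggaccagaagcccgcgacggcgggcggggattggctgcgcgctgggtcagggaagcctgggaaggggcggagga
ERN1: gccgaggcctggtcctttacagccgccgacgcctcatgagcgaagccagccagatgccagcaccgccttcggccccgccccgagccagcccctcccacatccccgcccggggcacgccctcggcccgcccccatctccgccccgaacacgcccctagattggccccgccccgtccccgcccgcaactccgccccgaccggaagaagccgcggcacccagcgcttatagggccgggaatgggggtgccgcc
HSPA13: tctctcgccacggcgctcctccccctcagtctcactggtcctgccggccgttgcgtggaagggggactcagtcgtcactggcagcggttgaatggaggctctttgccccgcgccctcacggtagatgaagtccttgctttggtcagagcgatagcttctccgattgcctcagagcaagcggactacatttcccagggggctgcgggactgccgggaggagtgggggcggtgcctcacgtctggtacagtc

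Levels per kilobase of annotated exons spanned 3 orders of magnitude in untreated cells. CALR stood highest at 274 ± 2.04 CPM per kb (SD, n = 2), followed by HSPA5 at 216 ± 5.29. HSP90B1 at 179 ± 1.06 and CANX at 177 ± 0.848 came next and lay close together, and then PDIA3 at 119 ± 2.31. These most abundant genes are the general chaperones, the lectins and a disulfide isomerase. ERN1 was at 1.73 ± 0.102 CPM per kb, and DERL3 was lowest at 0.179 ± 0.0671. The 35 genes together took 6997 and 7115 CPM in the untreated libraries, 7178 and 7254 with chloroquine, and 6803 and 7013 with melatonin, so their summed level moved little. The order among the highest genes depends on the length used: per kilobase of the longest transcript HSPA5 ranked 4 instead of 2.

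**Figure D1:**
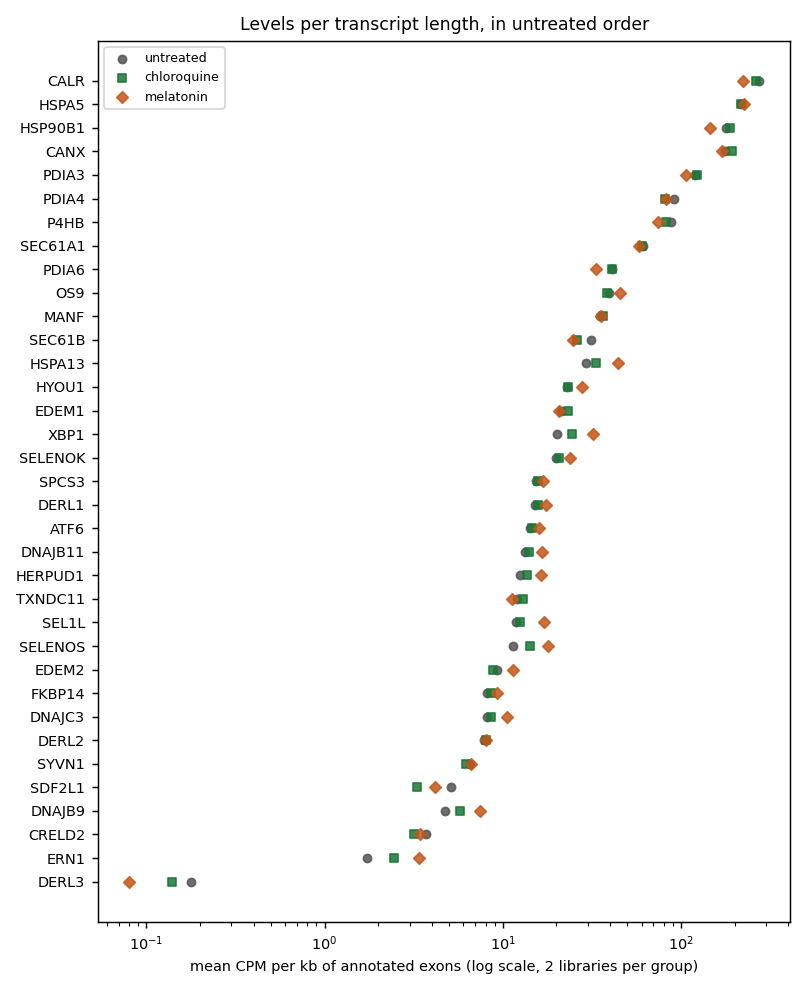
Mean level of each of the 35 genes as CPM per kilobase of annotated exons (horizontal log axis), with 1 symbol per group of 2 libraries and the genes in the order of their untreated level. The untreated values run from 0.179 for DERL3 to 274 for CALR, and melatonin (diamonds) stands to the right of untreated for ERN1, XBP1, HSPA13 and SEL1L and to the left for CALR and HSP90B1.

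With melatonin, single genes of the list were called higher or lower by the edgeR quasi-likelihood test, with Benjamini-Hochberg adjustment over all 16877 genes. Transcripts of IRE1, XBP1, DNAJB9, DNAJC3, HYOU1 and SEL1L were among those that rose, with or without the offsets. Those of GRP94, calreticulin, PDIA3 and PDIA6 fell, also in both fits. Of the 35 genes, 17 rose (48.6%), 7 fell (20%) and 11 did not pass the test. Over all genes tested 25.5% rose and 26.5% fell. The median log2 fold change was 0.06 for the 35 genes and 0.01 for all genes. With offsets for GC content and length, 13 of the 35 rose (37.1%) and 7 fell (20%), against 24.2% and 24.1% of all genes. Of the 7 that fell with the offsets, 4 had also fallen without them. Beside the background, the share that fell is not a result about the list.

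With chloroquine 11 of the 35 genes passed the test. The increases included both IRE1 and XBP1. The decreases included the disulfide isomerases PDIA4 and P4HB, which were no longer called with the offsets. By the same test 7 of the 35 rose (20%), 4 fell (11.4%) and 24 did not pass, against 9.54% and 10.7% of all genes. The share that fell is near the background and is not a result about the list. The median log2 fold change was 0.05 for the 35 and 0.00 for all genes. With the offsets, edgeR's test called 3 of the 35 higher (XBP1, ERN1 and SELENOS) and 0 lower, against 5.33% and 5.55% of all genes. At an unadjusted p under 0.05 those numbers were 8 and 3, but no share of all genes was taken at that limit. DESeq2 without offsets called 5 higher and 1 lower, against 963 and 1062 of the 11641 genes to which it gave an adjusted p. Separate cultures for the 2 libraries of each group are not stated, so p-values measure the spread between libraries, which may be technical.

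**Figure D2:**
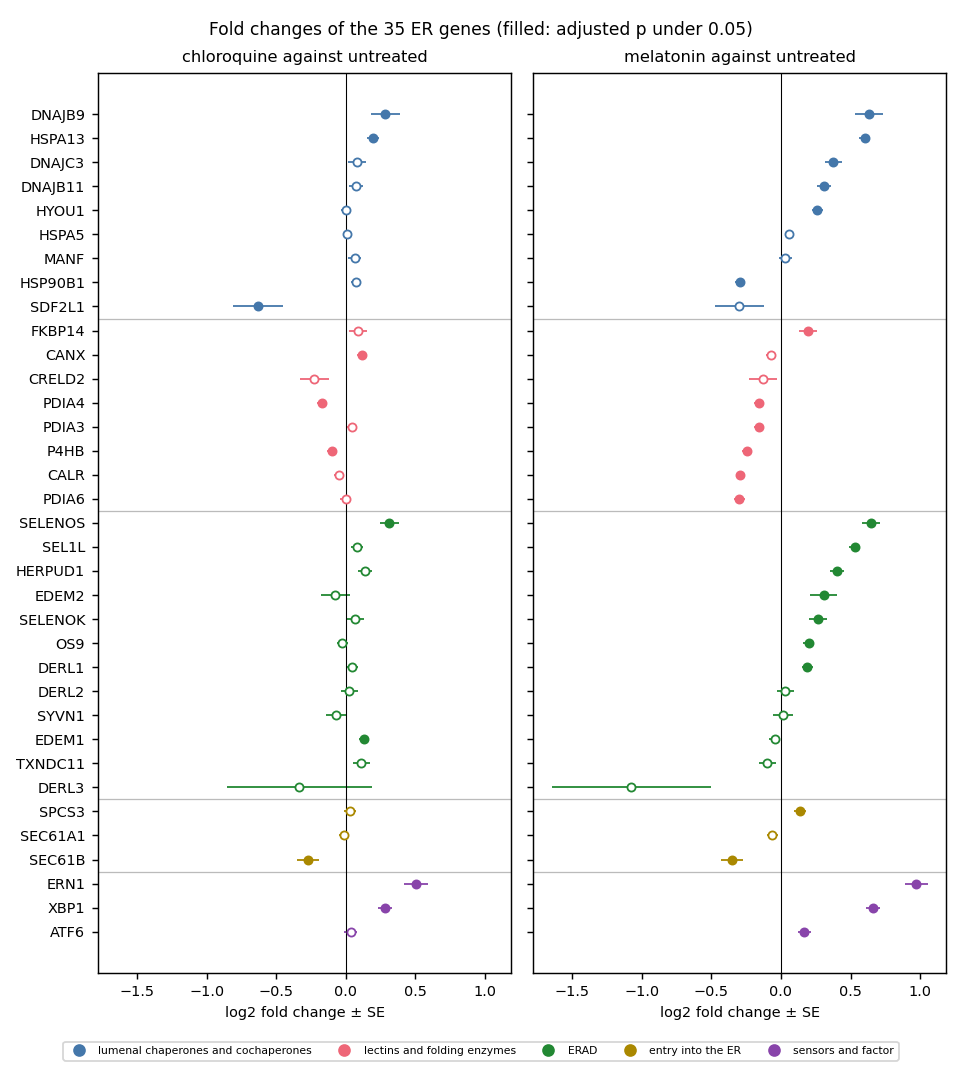
Log2 fold change with its standard error for each of the 35 genes, grouped and colored by role, with chloroquine against untreated on the left and melatonin against untreated on the right. Filled points have an adjusted p under 0.05, which holds for 11 genes with chloroquine and 24 with melatonin, and both panels use the same 2 untreated libraries.

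ERN1 had the largest increase of the 35 genes with melatonin, with or without the offsets. XBP1 was close to SELENOS and DNAJB9, and with the offsets its value lay below that of SELENOS. ERN1 (ENSG00000178607, chromosome 17, 64039142–64130819, minus strand, GRCh38) encodes IRE1, the kinase and endoribonuclease that splices XBP1. ERN1 measured 19.6 and 17.99 CPM in the untreated libraries, 26.7 and 26.6 with chloroquine, and 36.6 and 37.1 with melatonin. The 3 groups did not overlap, and the melatonin libraries stood highest. The log2 fold change was 0.51 ± 0.08 (SE) with chloroquine (adjusted p = 6.32e-05) and 0.97 ± 0.08 with melatonin (adjusted p = 6.25e-11), or 1.42-fold and 1.96-fold.

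XBP1 (ENSG00000100219, chromosome 22, 28794555–28800597, minus strand) encodes the bZIP factor that switches on ERAD and secretory genes. Its counts stood at 61.5 and 60.7 CPM untreated, 74.4 and 74.1 CPM with chloroquine, and 98.5 and 94.5 CPM with melatonin. Again the groups were apart in the same order. XBP1 rose by 0.28 ± 0.05 on the log2 scale with chloroquine (adjusted p = 1.38e-04) and by 0.66 ± 0.05 with melatonin (adjusted p = 4.96e-12). Both increases remained with the offsets, at 0.21 and 0.60.

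ATF6 (ENSG00000118217, chromosome 1, 161766294–161964070, plus strand), the sensor that is cut into a transcription factor, behaved less clearly. It measured 106 and 119 CPM untreated, 114 and 117 with chloroquine, and 126 and 127 with melatonin. The chloroquine libraries lay between the untreated ones, and the melatonin libraries lay above all others. The increase with melatonin was 0.17 ± 0.05 (adjusted p = 0.00342), but with the offsets the value was -0.02 (adjusted p = 0.772), and the call was also lost without untreated library 1. With chloroquine the log2 difference was 0.04, with a 95% interval of -0.06 to 0.13.

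Among the 9 lumenal chaperones and cochaperones 5 rose with melatonin, 1 fell and 3 did not pass, with a median log2 fold change of 0.26, against 25.5% and 26.5% of all genes that rose and fell. With the offsets the counts were 5 and 1 and the median 0.18. BiP itself hardly differed. HSPA5 (ENSG00000044574, chromosome 9, 125234853–125241330, minus strand) measured 830 and 859 CPM untreated, 842 and 861 with chloroquine, and 862 and 901 with melatonin. Chloroquine and untreated libraries overlapped, and the melatonin libraries stood just above. The log2 difference was 0.01 with chloroquine (95% interval -0.06 to 0.08, adjusted p = 0.858) and 0.06 with melatonin (-0.01 to 0.13, adjusted p = 0.142). Scaling by library totals alone, or leaving out melatonin library 1, put the melatonin value past the threshold.

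GRP94, which folds integrins and Toll-like receptors, fell with melatonin. HSP90B1 (ENSG00000166598, chromosome 12, 103930107–103953645, plus strand) measured 842 and 835 CPM untreated, 868 and 898 with chloroquine, and 668 and 697 with melatonin. Melatonin libraries were the lowest and chloroquine libraries the highest. The change with melatonin was -0.30 ± 0.03 (adjusted p = 3.14e-08), or -0.41 with the offsets. With chloroquine the difference of 0.07 did not pass (adjusted p = 0.133), but did without a count filter, in a fit of those 2 groups alone, and without melatonin library 1.

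Of the BiP cochaperones, DNAJB9 (ENSG00000128590, chromosome 7, 108569568–108574850, plus strand), or ERdj4, brings BiP to misfolded proteins and to IRE1. It measured 13.7 and 13.2 CPM untreated, 15.7 and 17.0 with chloroquine, and 19.7 and 22.3 with melatonin. The groups were apart, with melatonin highest. DNAJB9 rose by 0.63 ± 0.10 with melatonin (adjusted p = 4.42e-06). The rise of 0.28 ± 0.10 with chloroquine (adjusted p = 0.0495) was lost under 8 of the 16 alternatives, among them each fit that left out an untreated or a chloroquine library.

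HSPA13 (ENSG00000155304, chromosome 21, 14371115–14383484, minus strand), an Hsp70-like ATPase of microsomes, measured 125 and 120 CPM untreated, 135 and 146 with chloroquine, and 185 and 186 with melatonin. Its groups did not overlap, and melatonin again stood highest. The increase was 0.60 ± 0.04 with melatonin (adjusted p = 2.50e-12) and 0.20 ± 0.04 with chloroquine (adjusted p = 0.00135). HSPA13 has the lowest GC content of the 35 genes (34.9%), and the offsets reduced these values to 0.36, still called, and 0.04, no longer called. The chloroquine call was also lost without chloroquine library 2.

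DNAJC3, DNAJB11 and HYOU1 rose with melatonin by smaller amounts. DNAJC3, or p58IPK, which also inhibits PERK, rose by 0.38 ± 0.06. DNAJB11, or ERdj3, rose by 0.31 ± 0.05, a call that the offsets removed at 0.11 (adjusted p = 0.0522). HYOU1, or GRP170, the nucleotide exchange factor of BiP, rose by 0.26 ± 0.04 and by 0.38 with the offsets. MANF, a lumenal protein that binds BiP, did not pass with either agent at 0.07 and 0.03, but was called higher with melatonin under the offsets at 0.15. With chloroquine DNAJC3, DNAJB11 and HYOU1 were at 0.08, 0.08 and 0.00, and none of the 3 passed.

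SDF2L1 (ENSG00000128228, chromosome 22, 21642261–21644298, plus strand), which works with ERdj3, was the chaperone gene that fell with chloroquine. It measured 5.64 and 5.59 CPM untreated, 3.48 and 3.78 with chloroquine, and 4.54 and 4.59 with melatonin. The chloroquine libraries were lowest and the groups did not overlap. The decrease with chloroquine was -0.63 ± 0.18 (adjusted p = 0.0128), and the melatonin value of -0.30 did not pass (95% interval -0.66 to 0.06). With the offsets the melatonin value changed sign to 0.21 and did not pass either. Chloroquine over melatonin was then called by edgeR's test, at -0.55 (adjusted p = 0.0148). The values rest on 70 to 111 counts per library and on the highest GC content of the list (65.5%). The chloroquine value was -0.34 with the offsets and no longer called, nor was it called by DESeq2 or without untreated library 2 or chloroquine library 1.

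Of the 8 lectins and folding enzymes, 5 fell with melatonin, 1 rose and 2 did not pass, with a median log2 fold change of -0.16, against 26.5% of all genes that fell and 25.5% that rose. With the offsets 4 were called lower at a median of -0.10, and with library totals alone 3 were called lower and 1 higher at a median of -0.07. Summed over the 8 genes the level was 3332 and 3376 CPM untreated, 3373 and 3374 with chloroquine, and 2928 and 3033 with melatonin. The melatonin libraries were the lowest, while the other 4 lay close together. CALR, the soluble lectin chaperone calreticulin, fell by 0.29 ± 0.03 on the log2 scale, and PDIA6 (P5) fell by 0.30 ± 0.04. P4HB, the classical disulfide isomerase, fell by 0.24 ± 0.03, while PDIA3 (ERp57, the partner of the lectins) and PDIA4 (ERp72) each fell by 0.16. With the offsets CALR, PDIA3 and PDIA6 were still called, P4HB was at -0.02 and PDIA4 at -0.06. Scaled by library totals alone, PDIA3 and PDIA4 no longer passed.

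CANX, the membrane-bound lectin calnexin, rose by 0.12 ± 0.03 with chloroquine (adjusted p = 0.0141) and was at -0.07 with melatonin (adjusted p = 0.0694). The offsets moved these values to 0.03 and -0.22, of which the second was called, and the chloroquine call was also lost without either untreated library or chloroquine library 1. PDIA4 fell by 0.17 ± 0.04 with chloroquine, and P4HB fell by 0.10 ± 0.03. With the offsets PDIA4 was at -0.11 and no longer called, and P4HB turned to 0.04. P4HB was also no longer called by DESeq2, without a count filter, or without any 1 of the untreated and chloroquine libraries. FKBP14, a prolyl isomerase for collagens, rose by 0.20 ± 0.06 with melatonin. With the offsets its value was 0.00, and the call was also lost with DESeq2, without untreated library 2 and without melatonin library 1. CRELD2, a stress-inducible secretory protein, was at -0.23 with chloroquine and -0.13 with melatonin and did not pass in either, although the chloroquine value did without untreated library 1. Of the annotated exon bases of PDIA6, 25.2% also belong to ATP6V1C2 on the opposite strand, and whether counting used strand is not given in the sources used here.

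ERAD transcripts rose with melatonin in 7 of 12 cases, the other 5 did not pass, and the median log2 fold change was 0.19, against 25.5% of all genes that rose. With the offsets 6 were called higher and 1, EDEM1, lower, at a median of 0.21. Summed over the 12 genes the level was 863 and 885 CPM untreated, 904 and 926 with chloroquine, and 1012 and 1030.5 with melatonin. The 3 groups were apart in this sum. SEL1L (ENSG00000071537, chromosome 14, 81471549–81533861, minus strand), the adaptor that stabilises the ubiquitin ligase HRD1, measured 111 and 116 CPM untreated, 121 and 119 with chloroquine, and 160 and 167 with melatonin. The melatonin libraries stood above all others. SEL1L rose by 0.53 ± 0.04 with melatonin (adjusted p = 1.85e-11), and by 0.31 with the offsets. With chloroquine the difference of 0.08 did not pass (95% interval -0.01 to 0.17).

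SELENOS (ENSG00000131871, chromosome 15, 101270817–101277500, minus strand) encodes a selenoprotein that ties the p97 ATPase to derlins in the ER membrane. Its level was 41.6 and 44.8 CPM untreated, 51.3 and 56.2 CPM with chloroquine, and 64.4 and 71.4 CPM with melatonin. The groups did not overlap, and melatonin stood highest. SELENOS rose by 0.31 ± 0.07 with chloroquine (adjusted p = 0.00115) and by 0.65 ± 0.07 with melatonin (adjusted p = 2.91e-09). The offsets left both values at 0.31 and 0.66.

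HERPUD1 (ENSG00000051108, chromosome 16, 56932048–56944863, plus strand), a membrane scaffold of the HRD1 complex, measured 64.9 and 63.4 CPM untreated, 70.6 and 70.7 with chloroquine, and 86.8 and 82.6 with melatonin. Each group was apart from the others. HERPUD1 rose by 0.40 ± 0.05 with melatonin (adjusted p = 9.40e-08). The chloroquine value of 0.14 ± 0.05 lay at the threshold (adjusted p = 0.0503, 95% interval 0.04 to 0.25), and 4 of the 16 alternatives called it.

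Smaller increases with melatonin were seen for EDEM2, which starts the trimming of mannose, at 0.31 ± 0.10, and for SELENOK, a second selenoprotein that binds derlins, at 0.26 ± 0.07. OS9, a lectin that reads trimmed glycans, rose by 0.20 ± 0.04, and DERL1, a derlin of the retrotranslocation channel, rose by 0.19 ± 0.04. With the offsets DERL1 was at 0.05 and no longer called. EDEM2 had 15.9 to 23.6 CPM, and its call was lost with DESeq2, without untreated library 1 and without melatonin library 1. EDEM1, which also feeds trimmed glycoproteins to ERAD, rose with chloroquine by 0.13 ± 0.04 (adjusted p = 0.0147), a call lost with the offsets, with DESeq2 and without any 1 of the untreated and chloroquine libraries.

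Unlike its adaptor SEL1L, the ligase itself was not called. SYVN1, which encodes HRD1, had a log2 difference of 0.02 with melatonin (95% interval -0.13 to 0.16) and of -0.07 with chloroquine (-0.22 to 0.08), and neither passed. DERL2 was at 0.03 (-0.09 to 0.16) and 0.02 (-0.10 to 0.15) in the same order. TXNDC11, the oxidoreductase partner of EDEM2, was at -0.10 and 0.11, and its melatonin value passed without melatonin library 2. With the offsets, edgeR's test put the melatonin value of SYVN1 at 0.16 (adjusted p = 0.0545), not called, beside 0.31 for SEL1L. The melatonin value of DERL2 was then -0.14 (adjusted p = 0.0533), also not called. DERL3 was close to the floor, with 14 and 9 counts untreated, 14 and 7 with chloroquine, and 9 and 4 with melatonin. Since 77% of its annotated exon bases also belong to SMARCB1 on the opposite strand, these few counts cannot be assigned with certainty.

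**Figure D3:**
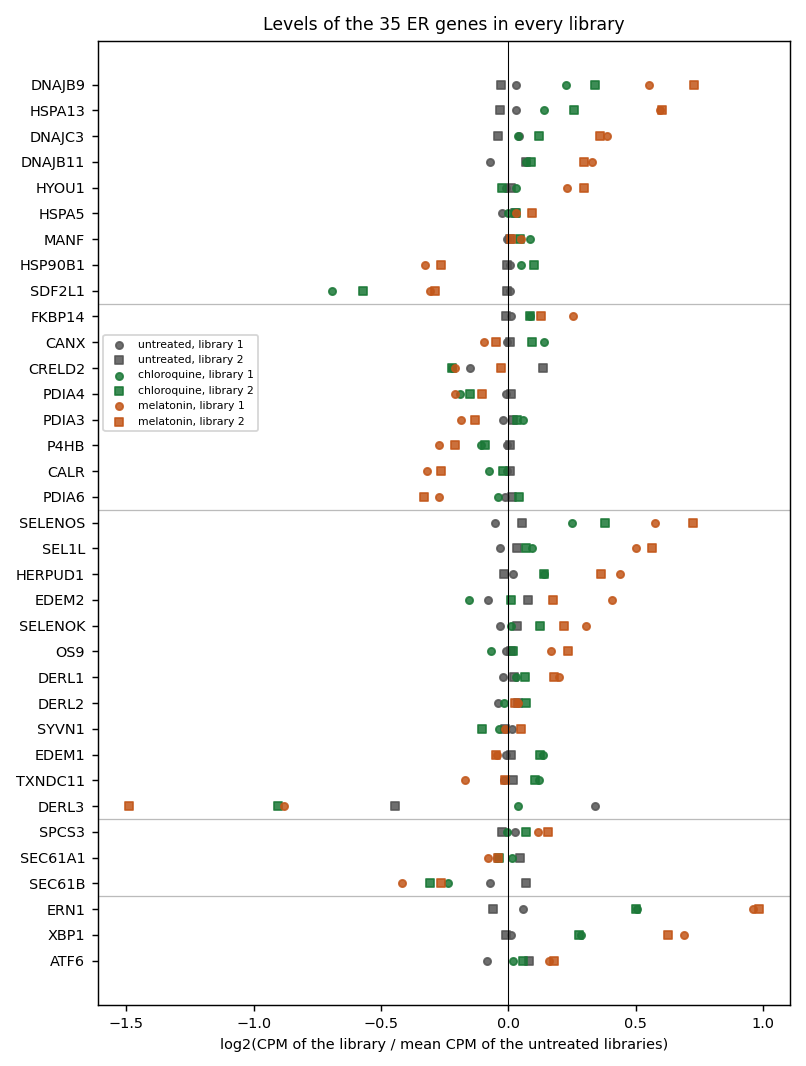
Log2 ratio of the CPM of each library to the mean CPM of the 2 untreated libraries, for each of the 35 genes in the order of their roles. Melatonin libraries lie near 0.97 for ERN1 and near 0.60 for HSPA13, chloroquine libraries near 0.51 for ERN1, and the scatter of DERL3 reflects its 4 to 14 counts.

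Of the genes for entry into the ER, SEC61B, the small subunit of the translocation channel, fell with both agents, by 0.27 ± 0.08 on the log2 scale with chloroquine (adjusted p = 0.0123) and by 0.35 ± 0.08 with melatonin (adjusted p = 4.53e-04). With the offsets neither call remained, at -0.23 and -0.19, and the chloroquine call was also lost with DESeq2, without untreated library 2 and without chloroquine library 2. SEC61A1, which forms the pore, was at -0.01 (95% interval -0.09 to 0.07) and -0.06 (-0.14 to 0.02) and did not pass, although the melatonin value did without untreated library 1. SPCS3, a subunit of signal peptidase, was called higher with melatonin at 0.13 ± 0.04 (adjusted p = 0.0109) and called lower with the offsets at -0.11 (adjusted p = 0.0429), so no direction can be given for it. Its first call was also lost with DESeq2, without untreated library 2 and without melatonin library 2. SPCS3 has a GC content of 35.8%, among the lowest of the list.

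Set directly against each other, the agents differed in 23 of the 35 genes. By the edgeR quasi-likelihood test 8 were higher with chloroquine than with melatonin (22.9%), against 23.9% of all genes, and 15 were lower (42.9%), against 23.1%. The median log2 difference, chloroquine over melatonin, was -0.10 for the 35 genes and 0.00 for all genes. With the offsets 7 were higher and 14 lower, against 23.3% and 22.7% of all genes. The share that was higher is near the background and says nothing about the list.

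By role, 5 of the 8 lectins and folding enzymes were higher with chloroquine, against 23.9% of all genes, and the other 3 did not pass. With the offsets 4 were higher, and with library totals alone 4 were higher and 2 lower. Among the 5 were PDIA6 at 0.30 ± 0.04 and CALR at 0.25 ± 0.03. GRP94 differed more, with HSP90B1 at 0.37 ± 0.03 (adjusted p = 6.90e-10). The sensors and XBP1 were all lower with chloroquine, against 23.1% of all genes. ERN1 was at -0.47 ± 0.08 (adjusted p = 8.46e-06), XBP1 at -0.38 ± 0.05 (adjusted p = 1.04e-07) and ATF6 at -0.13 ± 0.05 (adjusted p = 0.0201). The ATF6 difference was no longer called with the offsets, at -0.04, nor under 6 other alternatives. Among the chaperones HSPA13 was at -0.40 ± 0.04 and DNAJB9 at -0.35 ± 0.09, and among ERAD genes SEL1L was at -0.45 ± 0.04 and EDEM2 at -0.38 ± 0.10. HSPA5 was at -0.05, with a 95% interval of -0.12 to 0.02. EDEM1 and TXNDC11 were the ERAD genes that were higher with chloroquine than with melatonin, at 0.18 ± 0.04 and 0.21 ± 0.06. When libraries were scaled by their totals alone, EDEM1, TXNDC11 and P4HB lost that call, and the counts were 5 higher and 20 lower. Without melatonin library 1 the calls of EDEM2, TXNDC11 and SELENOK were lost, and without melatonin library 2 those of DNAJB9 and ATF6. Leaving out chloroquine library 1 removed those of TXNDC11, SELENOK, DERL1 and ATF6, and leaving out chloroquine library 2 that of ATF6.

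Grouped by abundance, a grouping chosen after the values were seen and therefore given with no test, the genes differed in direction. Among the 7 genes with the highest untreated level per kilobase, 5 fell with melatonin and 2, HSPA5 and CANX, did not pass. Among the other 28, 17 rose, 2 fell and 9 did not pass, against 25.5% of all genes that rose and 26.5% that fell. The summed level of the 7 genes was 4776 and 4836 CPM untreated, 4857 and 4897 with chloroquine, and 4251 and 4431 with melatonin. That of the other 28 was 2220 and 2279, 2321 and 2357, and 2552 and 2582 CPM. The sums moved in opposite directions with melatonin and overlapped between groups in neither case. The median GC content of the 2 classes was 46.0% and 46.9%, and with the offsets 4 of the 7 fell while 13 of the 28 rose and 3 fell. Those 4 were HSP90B1, CALR, PDIA3 and CANX, of which CANX was not called before, while PDIA4 and P4HB lost their calls. Among the 7, CALR, CANX, PDIA3, PDIA4 and P4HB belong to the lectins and folding enzymes, so abundance and role cannot be told apart.

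Within the list, as over all genes, fold changes fell with GC content. Over all genes the slopes per 10% GC were -0.22 for melatonin and -0.14 for chloroquine, so the trend is not particular to the list. The 17 genes that rose with melatonin had a median GC content of 41.5%, and the 7 that fell had 48.8%. The 11 that did not pass had the highest median, 52.7%, so the medians did not follow the order of the calls. Over the 35 genes, which share the same libraries and are not replicates, Spearman's correlation of the log2 fold change with GC content was -0.46 for melatonin and -0.63 for chloroquine. With the offsets, which are built to take out that trend, it was 0.01 and 0.09. With melatonin 12 of the 17 increases and 4 of the 7 decreases were still called with the offsets. MANF was then called higher, CANX and EDEM1 were called lower, and SPCS3 turned from called higher to called lower.

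**Figure D4:**
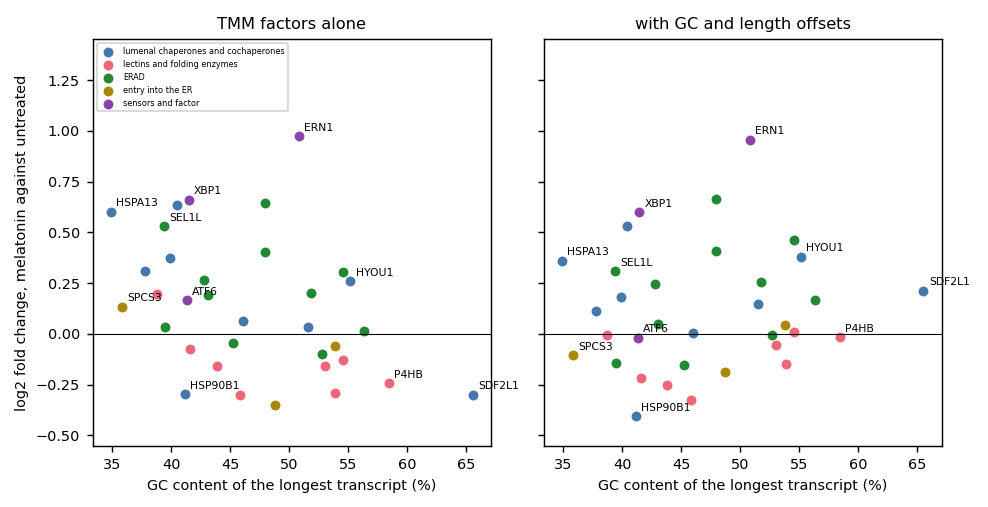
Log2 fold change with melatonin (vertical axis) against the GC content of the longest transcript in percent (horizontal axis) for 34 of the 35 genes, without offsets on the left and with GC and length offsets on the right; DERL3 lies outside the axis and is not drawn. ERN1 stays near 0.96 to 0.97, HSPA13 moves from 0.60 to 0.36, and SPCS3 and ATF6 cross the line at 0.

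By the call with melatonin, the promoter elements were spread over all outcomes. ERSE or ERSE-II was matched for 3 of the 15 genes with a promoter that rose (HYOU1, HERPUD1 and XBP1), for 2 of 6 that fell (HSP90B1 and CALR), and for 4 of 10 that did not pass (HSPA5, CANX, SDF2L1 and CRELD2). The ERSE of HSP90B1, printed above in 2 copies, therefore stood before a gene that fell, and that of XBP1 before a gene that rose. A match is a description of the sequence and not a measure of binding.

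Other genes of the same compartments, 118 in 4 lists that exclude the 35, were read from the same test, and 113 of them were tested. With melatonin 42 rose (37.2%) and 39 fell (34.5%), against 25.5% and 26.5% of all genes, and with the offsets 36 rose (31.9%) and 34 fell (30.1%), against 24.2% and 24.1%. With chloroquine 15 rose (13.3%) and 19 fell (16.8%), against 9.54% and 10.7%. With the offsets these were 5 (4.42%) and 6 (5.31%), against 5.33% and 5.55%, which is the background. Of 31 tested folding genes 11 rose and 9 fell with melatonin (11 and 8 with the offsets), with TMX4, a membrane thioredoxin, at 0.89 ± 0.04 and ERP44, which retains client proteins, at 0.67 ± 0.05. SERPINH1, the collagen chaperone HSP47, fell by 1.13 ± 0.04 on the log2 scale, and FKBP10, another collagen folding factor, fell by 0.61 ± 0.05. Of 32 further ERAD genes 16 rose and 9 fell with melatonin (13 and 6 with the offsets). EDEM3 rose by 0.71 ± 0.05 and ERLIN2 by 0.61 ± 0.05, whereas the ligase RNF5 fell by 0.68 ± 0.06 and UBL4A fell by 0.77 ± 0.08.

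Among 35 tested genes of protein entry and N-glycosylation, 9 rose and 15 fell with melatonin (8 and 16 with the offsets). These are 25.7% and 42.9%, against 25.5% and 26.5% of all genes. With the offsets they are 22.9% and 45.7%, against 24.2% and 24.1%. The share that rose is near the background and is not a result about these genes. STT3A, a catalytic subunit of oligosaccharyltransferase, fell by 0.40 ± 0.04, and GANAB, the glucosidase that prepares glycans for calnexin and calreticulin, fell by 0.38 ± 0.03. MAGT1 rose by 0.46 ± 0.04 and SEC11C, a signal peptidase subunit, by 0.63 ± 0.09. Of 15 other sensors and regulators 6 rose and 6 fell with melatonin (4 and 4 with the offsets). Each count is 40% without the offsets and 26.7% with them, and the latter is near the background. CREB3 rose by 0.64 ± 0.07, and MBTPS2, the protease that makes the last cut in ATF6, rose by 0.32 ± 0.04 but was at 0.08 and not called with the offsets. ATF6B, the close relative of ATF6, fell by 0.51 ± 0.05, and NFYB, a subunit of the factor that binds the CCAAT part of ERSE, fell by 0.48 ± 0.05. With chloroquine EIF2AK3, which encodes PERK, rose by 0.36 ± 0.08 (adjusted p = 0.00273), and NUCB2 rose by 0.22 ± 0.05. Those calls remained with the offsets, at 0.31 and 0.15, although that of EIF2AK3 was lost without untreated library 2. The chloroquine increases of ERO1A, UBXN4, EDEM3, SEC62, SSR3 and MBTPS2, between 0.17 and 0.24, were not called with the offsets. Nor were the chloroquine decreases of SERPINH1 and FKBP10 (-0.22 and -0.29), of the ERAD factors FBXO2 and BAG6 (-0.36 and -0.18), of DDOST and MOGS, which act in N-glycosylation (-0.18 and -0.28), and of WFS1 and CREB3L1 (-0.33 and -0.42). The calls of WFS1 and CREB3L1 were also lost without untreated library 2, and those of DDOST and CREB3L1 without chloroquine library 2.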

How the data were processed

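Gene counts of 6 MHCC97-H libraries were used as the authors deposited them in 1 table. The tool fastp and the build GRCh38 are named, per the submitters' processing notes. Libraries were made from 1 µg of total RNA with a TruSeq kit, per the labels' protocols. Which aligner, annotation release and strand setting were used is not given in the sources used here. Gene positions, exon lengths and GC content came from GENCODE release 29, which placed 58274 of the 62710 genes.

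Counts were tested in R 4.3.3 with edgeR 4.0.16 (TMM factors, filterByExpr, quasi-likelihood test, all 6 libraries in 1 fit, Benjamini-Hochberg adjustment over 16877 genes, threshold 0.05). Residual degrees of freedom numbered 3 and prior ones 23.6, and the common biological coefficient of variation stood at 0.0315. CPM use TMM-scaled totals, and 95% intervals use the fit's standard errors. The members and all gene lists were chosen with earlier results of these data known. Values per library are given for HSPA5, HSP90B1, ATF6, ERN1, XBP1 and HERPUD1, and for each member called with an absolute log2 fold change of at least 0.4 whose groups did not overlap. From the other lists, up to 2 genes per direction with a mean log2 CPM of at least 2 are named, by smallest p. Offsets for GC content and length were loess fits per library (span 0.3). The script was tested on simulated data. Replicates of a group differed by more than counting noise (chi-square per degree of freedom 1.83 to 2.62). DESeq2 1.42.0, other scalings and filters, the replicate number as a block and leaving out each library were the alternatives, 16 in all.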

Additional observations from a re-analysis of the deposited data

How the results depend on the processing

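Of 1673 values of single genes over 16 alternatives, 1552 kept their direction and call or were called in neither fit, 83 lost a call, 30 gained one and 8 turned. The 8 that turned were with GC and length offsets, alone and with a replicate block: P4HB with chloroquine (0.0440 with offsets alone and 0.0440 with the block too), and with melatonin FKBP14 (-0.0033 and -0.0072), SPCS3 (-0.11 and -0.10) and ATF6 (-0.0184 and -0.0137). The offsets act through GC content and length alone. Of the 7 genes higher with chloroquine, 3 remained with the offsets and 3 with block and offsets, and leaving out 1 library gave 4 to 8. Of the 4 lower, DESeq2 called 1, the offsets 0 and block with offsets 1, and leaving out 1 library gave 1 to 4; the cause of the losses with DESeq2 was not tested. The replicate block alone left the counts at 7 and 4 with chloroquine, 17 and 7 with melatonin, and 8 and 15 between agents. Over all tested genes, same-numbered libraries did not deviate together (correlations -0.0405 to -0.0088). That measure weighs every gene alike and could miss a link that acts on some genes, so it does not settle whether these libraries were paired. Scaling by library totals alone put the median of all genes at 0.10 with melatonin, with 5541 higher and 3434 lower instead of 4307 and 4475. Between agents it gave 2952 and 5177 instead of 4041 and 3892, and 5 and 20 of the 35 genes instead of 8 and 15. Under all 16 alternatives 11 of the 17 increases and 3 of the 7 decreases with melatonin were called, and 3 of 7 and 0 of 4 with chloroquine. Counts of 4 to 14 limit DERL3 and 70 to 111 limit SDF2L1. With 2 libraries a group, leaving out 1 assumes that the lone library varies like the other groups.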
